A study of Mus musculus with 4 samples.

Results

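The insulin-like growth factor axis was followed as 10 genes in neonatal mouse hearts healing after cryoinjury: the ligands Igf1 and Igf2, the receptors Igf1r and Igf2r, and the binding proteins Igfbp2 to Igfbp7. They were chosen by gene symbol, and all 10 were found once each among the 32285 genes of the tables. The hearts came from ICR mice whose left ventricular apex was frozen with a cooled probe for 5 s on postnatal day 1. They were taken 1, 4, 7 and 14 days later, that is at postnatal days 2, 5, 8 and 15, and sectioned fresh-frozen at 10 µm for Visium spatial RNA capture. Each day had 1 section, all 4 sections were from injured hearts, and no genotype, drug or transgene is given for any of them. Days after injury and age therefore cannot be told apart, and no p-value across days can be given.

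Insulin-like growth factors are secreted peptides that drive growth through the receptor tyrosine kinase encoded by Igf1r. Igf2, an imprinted gene expressed from the paternal allele, encodes the main fetal ligand, and Igf1 the ligand that growth hormone induces after birth. Igf2r encodes a receptor that carries the Igf2 peptide to lysosomes for breakdown and, in mice, is expressed from the maternal allele. The binding proteins hold the ligands outside cells and can both shield them and deliver them to matrix. In the heart the axis is known for promoting growth of fetal and neonatal cardiomyocytes.

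A Visium spot covers a small region that can hold several cells of different types, so a level is a property of tissue and not of a cell. Levels are given as UMIs (unique transcript counts) per 1000000 UMIs, written CPM, from raw UMIs pooled over spots. Spots with 500 or more UMIs were kept, 445, 662, 774 and 1175 at days 1, 4, 7 and 14, with 3419864, 6187656, 6358894 and 4741982 UMIs listed in the sections. The median kept spot had 7810, 7998, 8028 and 3770 UMIs, so day 14 was the shallowest per spot. Matrix-rich spots were the cluster of each section with the largest share of UMIs from 20 extracellular matrix genes. Such clusters were found without the 10 genes or 52 related signalling genes and held 38, 47, 54 and 123 spots, against 407, 615, 720 and 1052 other spots. The sections share 248 to 754 spot barcodes in pairs, which mark array positions and not shared cells. Ventricular cardiomyocyte genes were abundant in every section, with 10 of 10 listed genes found in the matrix-rich spots and a summed level of 24588 to 59319 CPM there and 66455 to 95066 CPM in other spots.

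Matrix-rich spots did not hold the same tissue on each day. Their leading genes were the macrophage genes Spp1, Gpnmb and Arg1 with chemokine genes at day 1, and the matrix genes Eln, Tnc and Cthrc1 at days 4 and 7. Gpnmb, Thbs4 and Cilp led them at day 14. The 12 macrophage genes, all detected there on each day, summed to 2904, 1451, 1400.5 and 1980.4 CPM in matrix-rich spots and to 232, 199, 287 and 702 CPM in other spots. Of 9 atrial genes 8 were detected there on each day (Bmp10 was at 0), with 3050, 16605, 4082 and 9058 CPM in matrix-rich spots and 1379, 5932, 365 and 1821 CPM in other spots. Skeletal muscle genes without Acta1 and Ckm, 8 in number, reached 426 CPM in matrix-rich spots at day 7 against 11.7 CPM in other spots, with 7 of the 8 detected and Myh4 at 0. On the other days they stood at 8.60 to 22.4 CPM in matrix-rich spots and 9.46 to 11.5 CPM in other spots. The 7 adipocyte genes reached 133 CPM in matrix-rich spots at day 14, against 1.57 CPM in other spots, with 5 detected and Lep and Ucp1 at 0. In such spots fewer cells of a type and less RNA per cell cannot be told apart.

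The promoters of 4 of the genes are shown because Igf2, Igf1r and Igf2r had lower levels at day 14 than at day 1, while Igfbp7 had the most UMIs and a higher level. The series is named for Egr1, a zinc-finger transcription factor that binds GC-rich sites related to those of Sp1. The 250 bases before the RefSeq transcription start (build GRCm38.p6) are written 5′ to 3′ on the gene's strand, and capitals mark GC boxes, the Sp1-type letters GGGCGG on either strand. Igf2 starts at several places, and the window nearest the coding end, within an intron of longer Igf2 transcripts, is shown. The windows lie at chr7:142657497-142657746 (minus strand) for Igf2, chr7:67952007-67952256 (plus strand) for Igf1r, chr17:12769707-12769956 (minus strand) for Igf2r and chr5:77408046-77408295 (minus strand) for Igfbp7.
Igf2: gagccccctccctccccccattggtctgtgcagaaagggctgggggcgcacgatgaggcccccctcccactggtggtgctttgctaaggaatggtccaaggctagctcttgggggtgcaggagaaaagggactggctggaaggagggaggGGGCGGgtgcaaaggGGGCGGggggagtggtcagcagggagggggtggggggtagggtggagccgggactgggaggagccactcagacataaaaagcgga
Igf1r: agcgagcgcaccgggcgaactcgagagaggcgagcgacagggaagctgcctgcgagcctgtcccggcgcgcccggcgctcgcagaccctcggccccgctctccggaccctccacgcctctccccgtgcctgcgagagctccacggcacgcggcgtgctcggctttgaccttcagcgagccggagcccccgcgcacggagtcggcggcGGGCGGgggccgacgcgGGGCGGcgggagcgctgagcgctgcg
Igf2r: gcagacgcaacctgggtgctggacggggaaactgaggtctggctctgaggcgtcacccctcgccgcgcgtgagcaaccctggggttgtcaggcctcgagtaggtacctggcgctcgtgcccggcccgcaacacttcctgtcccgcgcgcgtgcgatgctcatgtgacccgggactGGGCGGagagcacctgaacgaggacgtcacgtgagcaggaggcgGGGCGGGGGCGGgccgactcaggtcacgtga
Igfbp7: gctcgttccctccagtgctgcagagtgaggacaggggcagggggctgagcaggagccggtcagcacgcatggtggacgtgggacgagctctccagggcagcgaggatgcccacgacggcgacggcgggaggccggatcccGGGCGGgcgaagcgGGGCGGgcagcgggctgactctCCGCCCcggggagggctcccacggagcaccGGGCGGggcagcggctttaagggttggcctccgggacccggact
GC boxes numbered 2 in the Igf2 window shown, 2 in Igf1r, 3 in Igf2r and 4 in Igfbp7. The other Igf2 windows held 1, 0 and 0. The window of Igfbp6, the gene whose level differed most between days 14 and 1, is not shown and held 0. At least 1 GC box lay in a RefSeq promoter window of 5 of the 10 genes, the 4 shown and Igfbp2. In all, 6 of their 14 windows held one, and so did 32.7% of the 32851 mouse promoter windows. The Egr1-type letters GCGNGGGCG, searched on both strands, occurred in 1 of the 14 windows, that of Igf2r, against 4.70% of all windows. That match reads GCGGGGGCG, begins 29 bases before the start and overlaps the 2 GC boxes nearest to it. A match is only a string of letters in this window.

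In the GENCODE annotation of the build the submitters name, mm10, Igfbp2 (chr1:72824503-72852474, plus strand) and Igfbp5 (chr1:72857932-72874884, minus strand) are neighbours. Igf2 lies at chr7:142650766-142666816 on the minus strand and H19, on the same strand, at chr7:142575529-142578143. The strand setting of the counting is not given in the sources used here. Reads of Igf1, Igf2, Igf2r and Igfbp7 may thus not be told apart from those of genes that overlap them on the other strand. These are Igf1os, Igf2os, Airn, Polr2b and Gm34648. Igf2 is also overlapped by annotated genes on its own strand.

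A gene was counted as higher or lower only where 1 of the compared groups reached 20 CPM, the levels differed 2-fold or more (a ratio of 0.5 or less for a lower gene), and the 95% interval of the ratio left out 1. The intervals are exact binomial ones that cover counting error only, and not the spread between hearts, which 1 section a day cannot show. All later days are compared with the same day 1 section, so the 3 ratios of a gene share its counting error. In whole sections 2 of the 10 genes passed this rule at day 4, 4 at day 7 and 5 at day 14. On those days 8, 8 and 9 of the 10 reached 20 CPM in 1 of the compared groups. Over all genes that reached 20 CPM, 6.11%, 6.29% and 13.4% passed it in either direction. The median log2 ratio of the 10 genes was 0.20, -0.22 and 0.70, against 0.17, -0.03 and -0.06 for all genes tested. At day 4 the split of all genes depended on scaling, with 339 higher and 105 lower as given and 191 and 146 with TMM scaling, which moved the median to -0.03.

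Both ligands were present on every day and moved differently. Igf2 stood at 507, 465, 264 and 169 CPM at days 1, 4, 7 and 14, from 1636, 2718, 1470 and 728 UMIs. Its day 14 level was 0.333 of that at day 1 (95% interval 0.305 to 0.364), and the day 7 level 0.520 of it (0.485 to 0.559), or 0.483 and past the limit with haemoglobin and mitochondrial genes in the total. As given, the levels of all 4 days were apart beyond counting error, in the order of time. The order of days 1 and 4 depended on the spots pooled, with a day 4 ratio over day 1 of 0.916 as given and 0.805 with TMM scaling. It was 1.05 without the cluster richest in atrial genes, which at day 1 is also the cluster richest in endocardial genes. Igf1 stood at 15.2, 36.4, 27.5 and 23.0 CPM, from 49, 213, 153 and 99 UMIs. It was highest at day 4, 2.40-fold above day 1 (1.75 to 3.34), while days 7 and 14 did not differ from each other beyond counting error.

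Both receptors were lower at day 14 than at day 1. Igf1r, the signalling receptor, was at 44.7, 42.6, 28.6 and 20.7 CPM, and its day 14 level was 0.463 of that at day 1 (0.351 to 0.607). With a mean over spots that ratio was 0.524 and did not pass. Days 1 and 4 did not differ beyond counting error. Igf2r, the clearing receptor, was at 247, 221, 113 and 115 CPM. Its level was 0.456 of that at day 1 at day 7 (0.410 to 0.507) and 0.466 of it at day 14 (0.415 to 0.521), and those later days were alike within counting error. As given, Igf2, Igf1r and Igf2r thus had no higher level on any later day than at day 1. At day 4 this depended on the pooling for Igf2, as above, and for Igf1r, whose ratio over day 1 was 1.02 with a mean over spots.

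The binding proteins split. Igfbp7, a secreted protein of vessel walls and matrix that binds insulin-like growth factors weakly, was at 316, 778, 652 and 1077 CPM, and was higher at day 4 (2.46-fold, 2.30 to 2.64), day 7 (2.07-fold, 1.93 to 2.22) and day 14 (3.41-fold, 3.19 to 3.65). The day 7 call rests on which spots are pooled: the ratio was 1.78 without the cluster richest in atrial genes. At day 7 that is the matrix-rich cluster, while at day 1 leaving it out removed no matrix-rich spot. With haemoglobin and mitochondrial genes kept in the total the ratio was 1.92. Igfbp6, whose product prefers Igf2 over Igf1, was at 7.13, 9.92, 14.5 and 70.4 CPM, from 23, 58, 81 and 303 UMIs. It was 9.87-fold higher at day 14 than at day 1 (6.45 to 15.8). Without the cluster richest in atrial genes it was 5.69-fold higher. At day 14 that cluster is also the matrix-rich one, while all 38 matrix-rich spots stayed in at day 1, so the days were not trimmed alike.

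Igfbp3 and Igfbp5 dipped at day 7. Igfbp3, the main carrier of these ligands in blood, was at 78.8, 44.3, 25.3 and 149.8 CPM. At day 4 its ratio over day 1 was 0.562 (0.471 to 0.671), or 0.494 and lower with TMM scaling. It was 0.321 of the day 1 level at day 7 (0.260 to 0.396), and its day 14 level of 1.90-fold (1.64 to 2.21) stayed under the 2-fold limit. Igfbp5, a binding protein with a strong affinity for matrix, was at 144, 129.995, 66.6 and 138 CPM, with the day 7 level at 0.463 of that at day 1 (0.403 to 0.532). Its levels at days 1 and 14, and at days 14 and 4, did not differ beyond counting error. Igfbp4, a binding protein that the protease Pappa cleaves, was at 99.5, 188, 189 and 174 CPM, between 1.74-fold and 1.90-fold above day 1 on each later day and under the limit on all 3. It passed as higher at day 4 without the cluster richest in atrial genes (2.08), and at day 7 with a mean over spots (2.02) or without the cluster richest in endocardial genes (2.06). Igfbp2, a binding protein of fetal tissues, had only 3, 28, 6 and 10 UMIs in the 4 sections. No UMI of Igfbp1 was found in any section.

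**Figure D1:**
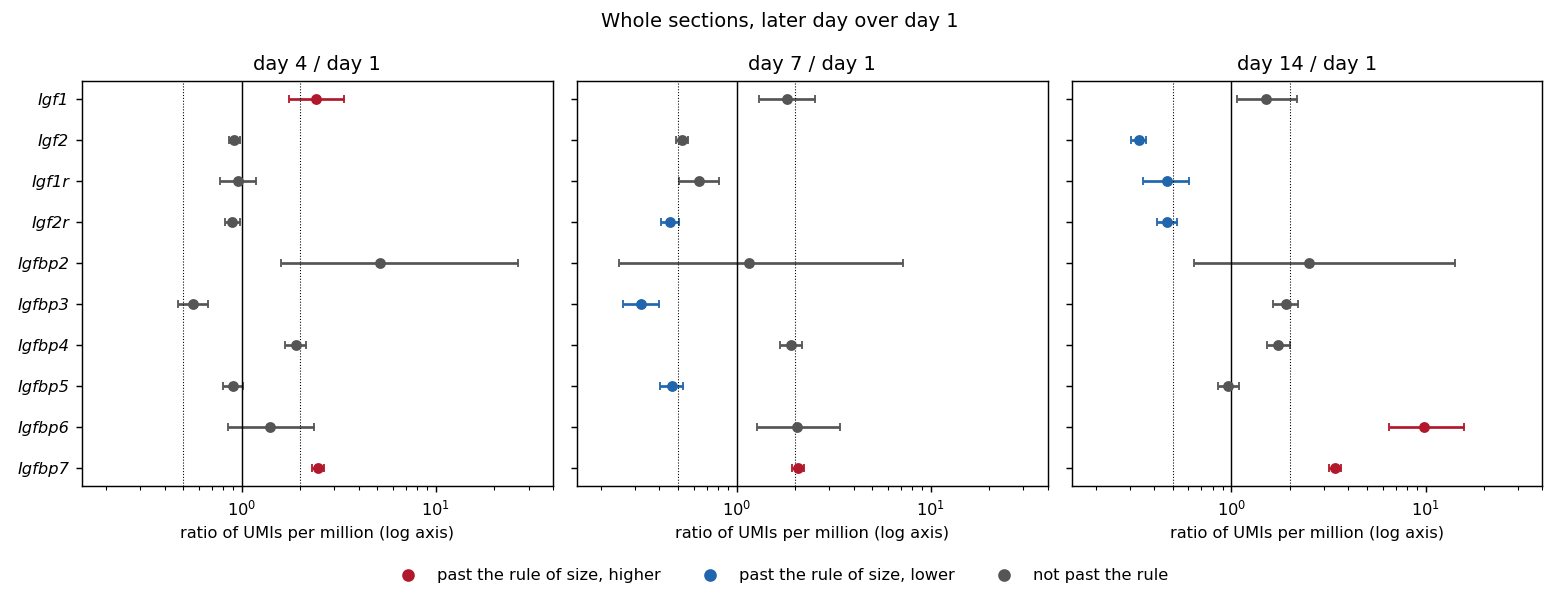
Ratio of whole-section CPM at days 4, 7 and 14 over day 1 for the 10 genes, on a log axis. Points are the ratios, bars their 95% counting intervals, the solid line equal levels and dotted lines the 2-fold limits; red marks genes counted as higher, blue as lower. At day 14 Igfbp6 and Igfbp7 lie right of the limit, with Igf2, Igf1r and Igf2r left of it.

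Inside matrix-rich spots the later days differed from day 1 mostly upward. There 4 of the 10 genes passed the rule at day 4, 3 at day 7 and 7 at day 14, against 15.8%, 13.8% and 18.0% of all genes tested. The 4 at day 4 include Igfbp2, which had no UMI there at day 1 and so no ratio. In other spots 1, 4 and 5 genes passed, against 5.30%, 5.93% and 13.7% of all genes tested. Only genes that reached 20 CPM were tested. Of the 10 genes, these numbered 10, 9 and 9 in matrix-rich spots and 8, 7 and 8 in other spots.

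Igf1 was the ligand whose level differed most between the regions. In matrix-rich spots it had 2, 53, 54 and 37 UMIs, which is 8.60, 94.2, 149 and 75.5 CPM at days 1, 4, 7 and 14, against 15.7, 30.3, 19.01 and 16.3 CPM in other spots. The matrix-rich level was above the other spots on the 3 later days and rested on 2 UMIs at day 1. Against day 1 it was 11.0-fold higher at day 4 (2.89 to 92.8), 17.4-fold at day 7 (4.58 to 147) and 8.77-fold at day 14 (2.26 to 75.1). These ratios moved by over 1.5 times with the choice of spots, to 5.38, 8.27 and 4.76 with the top 10% of spots by matrix genes, and to 20.1, 32.6 and 14.9 without spots holding a skeletal muscle UMI. Over other spots of the same section Igf1 was 3.11-fold higher at day 4 (2.24 to 4.27), 7.86-fold at day 7 (5.54 to 11.1) and 4.64-fold at day 14 (3.00 to 7.09). The UMIs were spread over 30 of 47, 29 of 54 and 28 of 123 matrix-rich spots at days 4, 7 and 14, with at most 7 in 1 spot. At day 7 the level was 152 CPM in the 35 matrix-rich spots with no skeletal muscle UMI and 146 CPM in the 19 with one.

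Igf2 did not pass between the regions on any day. It stood at 379, 324, 291 and 137 CPM there and at 517, 480, 262 and 173 CPM in other spots. Matrix-rich spots had 0.732 of the level of other spots at day 1 (0.583 to 0.907) and 0.674 of it at day 4 (0.577 to 0.784). At days 7 and 14 the ratios were 1.11 and 0.789 with intervals that included 1. They depended on the spots chosen and the scaling, at 1.86 and 1.40 with the top 10% of spots by matrix genes and 0.897 and 0.598 with TMM scaling. Both regions were lower at day 14 than at day 1, with ratios of 0.361 in matrix-rich spots (0.259 to 0.502) and 0.335 in other spots (0.305 to 0.367). In matrix-rich spots the call ended with the top 10% of spots, where the ratio was 0.525.

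Neither receptor passed between the regions on any day. Igf1r stood at 38.7, 51.6, 44.3 and 16.3 CPM in matrix-rich spots, from 9, 29, 16 and 8 UMIs, and at 45.1, 41.6, 27.5 and 21.2 CPM in other spots. All 4 intervals of its ratio between regions included 1. Igf2r stood at 207, 226, 169 and 108 CPM in matrix-rich spots and at 251, 221, 109 and 116 CPM in other spots, and its ratio excluded 1 only at day 7, at 1.55 (1.17 to 2.02). Both passed as lower at day 14 than at day 1 in other spots, at 0.471 for Igf1r (0.353 to 0.624) and 0.463 for Igf2r (0.411 to 0.522). Those calls ended under TMM scaling, where the ratios were 0.508 and 0.501, and that of Igf1r also with a mean over spots, at 0.534. In matrix-rich spots neither passed at day 14, with ratios of 0.421 for Igf1r (0.141 to 1.23) and 0.523 for Igf2r (0.347 to 0.790). Alternatives added calls there, with Igf1r lower at 0.437 with a mean over spots and 0.381 with the top 10% of spots, and Igf2r at 0.484 with a coarser clustering. Whether the regions differ in this was not tested.

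Igfbp4, Igfbp6 and Igfbp7 were each higher in matrix-rich spots than in other spots of the same section on at least 3 of the 4 days. Of the 10 genes, 2 passed as higher there at day 1, 5 at day 4, 4 at day 7 and 5 at day 14, against 15.1%, 14.1%, 16.2% and 13.9% of all genes tested. None passed as lower. On those days 8, 10, 9 and 9 of the 10 genes reached 20 CPM in 1 of the compared groups. The median log2 ratio of the 10 genes (9 at day 1, where Igfbp2 had no ratio) was -0.21, 0.76, 1.33 and 1.62, against 0.23, 0.12, 0.22 and 0.25 for all genes. TMM scaling moved the medians of all genes to -0.24, -0.02, -0.12 and -0.21 and turned the split of higher against lower genes, with 630 and 1017 at day 1 (1164 and 335 as given), 847 and 961 at day 4 (1128 and 805), 743 and 1016 at day 7 (1208 and 569) and 475 and 758 at day 14 (1037 and 166).

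Igfbp7 stood at 1002, 3151, 1982 and 2556 CPM in matrix-rich spots, from 233, 1772, 716 and 1253 UMIs, and at 262, 526, 559.97 and 886 CPM in other spots. The matrix-rich level was above that of other spots on all 4 days, by 3.82-fold, 5.99-fold, 3.54-fold and 2.88-fold in order of time, with intervals of 3.29 to 4.43, 5.64 to 6.37, 3.26 to 3.84 and 2.70 to 3.08. Matrix-rich spots held 22.9%, 39.0%, 19.7% and 27.0% of the section's Igfbp7 UMIs and 7.21%, 9.62%, 6.49% and 11.4% of all UMIs. Inside matrix-rich spots the level was 3.14-fold, 1.98-fold and 2.55-fold that of day 1 at days 4, 7 and 14. The day 7 ratio there did not pass, an outcome kept with 6 of 10 alternatives, and was 2.26 with the coarser clustering. Against day 1 the other spots were higher at day 7 (2.13-fold, 1.97 to 2.31) and day 14 (3.38-fold, 3.13 to 3.66). The day 7 call ended, at 1.98, with haemoglobin and mitochondrial genes in the total. Their day 4 ratio of 2.003 (1.85 to 2.17) lay on the limit and fell under it with 4 of 10 alternatives, the lowest being 1.71 with TMM scaling.

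Igfbp6 was scarce but concentrated. It had 8, 21, 31 and 135 UMIs in matrix-rich spots, or 34.4, 37.3, 85.8 and 275 CPM, against 5.01, 7.00, 9.60 and 44.0 CPM in other spots. The matrix-rich level was higher on all 4 days, by 6.87-fold (2.52 to 17.3), 5.33-fold (2.97 to 9.35), 8.94-fold (5.52 to 14.3) and 6.25-fold (4.95 to 7.89). The day 1 ratio, from 8 UMIs, was 11.1 with a mean over spots, the day 4 ratio 15.1 with the top 10% of spots by matrix genes, and the day 7 ratio 5.12 without spots holding a skeletal muscle UMI. Its later level was not confined to the matrix-rich spots: between days 14 and 1 it was 7.9997-fold higher inside them (3.95 to 18.9) and 8.79-fold in other spots (5.18 to 16.0). At day 7 the matrix-rich spots with a skeletal muscle UMI had 146 CPM and those without 49.1 CPM, and without them the day 7 ratio over day 1, 2.49 (1.12 to 6.28), was 1.505 and no longer passed. The part of skeletal muscle in this result was not tested further.

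Igfbp4 stood at 90.3, 348, 736 and 573 CPM in matrix-rich spots, from 21, 196, 266 and 281 UMIs, and at 100.3, 171, 151 and 122 CPM in other spots. At day 1 the ratio between regions was 0.901 (0.550 to 1.40), or 1.81 with the top 10% of spots by matrix genes. Matrix-rich spots were 2.03-fold higher at day 4 (1.73 to 2.37), 4.87-fold at day 7 (4.22 to 5.61) and 4.69-fold at day 14 (4.03 to 5.45). The day 4 call ended with TMM scaling, at 1.87, and with a coarser clustering, at 1.95. Inside matrix-rich spots the level was 3.86-fold above day 1 at day 4 (2.45 to 6.37), 8.15-fold at day 7 (5.22 to 13.4) and 6.34-fold at day 14 (4.07 to 10.4). With the top 10% of spots these were 2.09-fold, 3.99-fold and 3.74-fold. No ratio over day 1 in other spots reached 2.

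Igfbp5 turned round between days. It stood at 159, 85.3, 113 and 361 CPM in matrix-rich spots, from 37, 48, 41 and 177 UMIs, and at 143, 135, 63.4 and 109.8 CPM in other spots. Matrix-rich spots had 1.12 of the level of other spots at day 1 (0.775 to 1.56) and 0.633 of it at day 4 (0.463 to 0.849); with the top 10% of spots by matrix genes the day 4 ratio was 1.197. At day 7 the ratio was 1.79 (1.26 to 2.48), and alternatives ran from 1.13 without spots holding a skeletal muscle UMI to 2.34, which passed, with the top 10% of spots by matrix genes. Matrix-rich spots were 3.29-fold higher at day 14 (2.74 to 3.93). At day 7 the level was 182 CPM in matrix-rich spots with a skeletal muscle UMI and 71.5 CPM in those without. Inside matrix-rich spots day 14 was 2.27-fold above day 1 (1.58 to 3.33), with 1.89-fold among spots with 1500 or more UMIs, where the call ended, and 3.48-fold with a mean over spots. Day 7 stood at 0.713 of day 1 there and did not pass, but at 0.451, passing as lower, once spots with a skeletal muscle UMI were left out.

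Igfbp3 did not pass between the regions on any day, at 68.8, 60.5, 33.2 and 186 CPM in matrix-rich spots, from 16, 34, 12 and 91 UMIs, and at 79.5, 42.6, 24.8 and 145 CPM in other spots. Its largest ratio between regions was 1.42 at day 4 (0.959 to 2.04), and only that of day 14, 1.28 (1.01 to 1.60), excluded 1. The day 14 ratio was 0.969 under TMM scaling and 2.49, passing as higher, with the top 10% of spots by matrix genes. Inside matrix-rich spots it was 2.70-fold higher at day 14 than at day 1 (1.57 to 4.92). Igfbp2, with 0, 21, 3 and 9 UMIs in matrix-rich spots and 3, 7, 3 and 1 in other spots, had 75.0% of its UMIs in matrix-rich spots at day 4 (55.1% to 89.3%, exact binomial). At day 14, 9 of 10 lay there, and the ratio between regions was 70.0 (9.70 to 3069), or 3.39 with a finer clustering. At day 4 its level was 37.3 CPM in matrix-rich spots and 1.32 CPM in other spots, a ratio of 28.2 (11.5 to 78.5). In matrix-rich spots it had no UMI at day 1, where 3 UMIs would be 12.9 CPM. Its day 4 level there was 2.89-fold that value, a ratio that leaves out the counting error of day 4. The exact Poisson intervals of Igfbp2 in matrix-rich spots ended at 15.9 CPM at day 1 and began at 23.1 CPM at day 4. Its 21 UMIs at day 4 lay in 12 of 47 matrix-rich spots, with 6 in 1 spot.

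**Figure D2:**
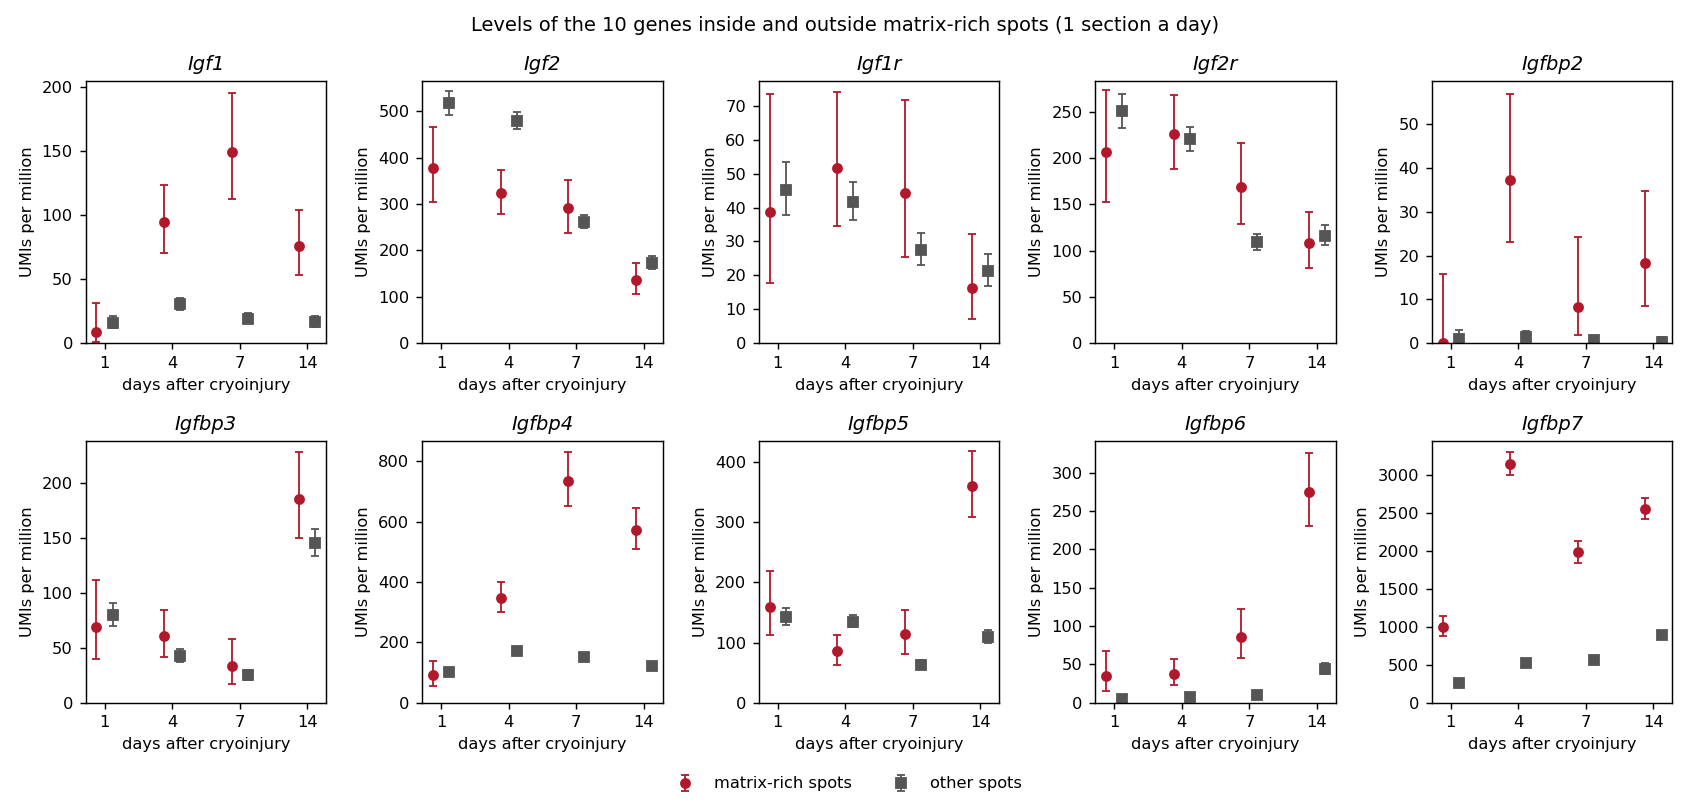
CPM of each of the 10 genes by days after cryoinjury, in matrix-rich spots (red circles) and other spots of the same section (grey squares); bars are exact 95% Poisson intervals for counting error, and y axes differ. Igf1, Igfbp4, Igfbp6 and Igfbp7 lie above the other spots in matrix-rich spots at days 4, 7 and 14, while Igf2 reads 379, 324, 291 and 137 CPM there and 517, 480, 262 and 173 CPM outside.

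**Figure D3:**
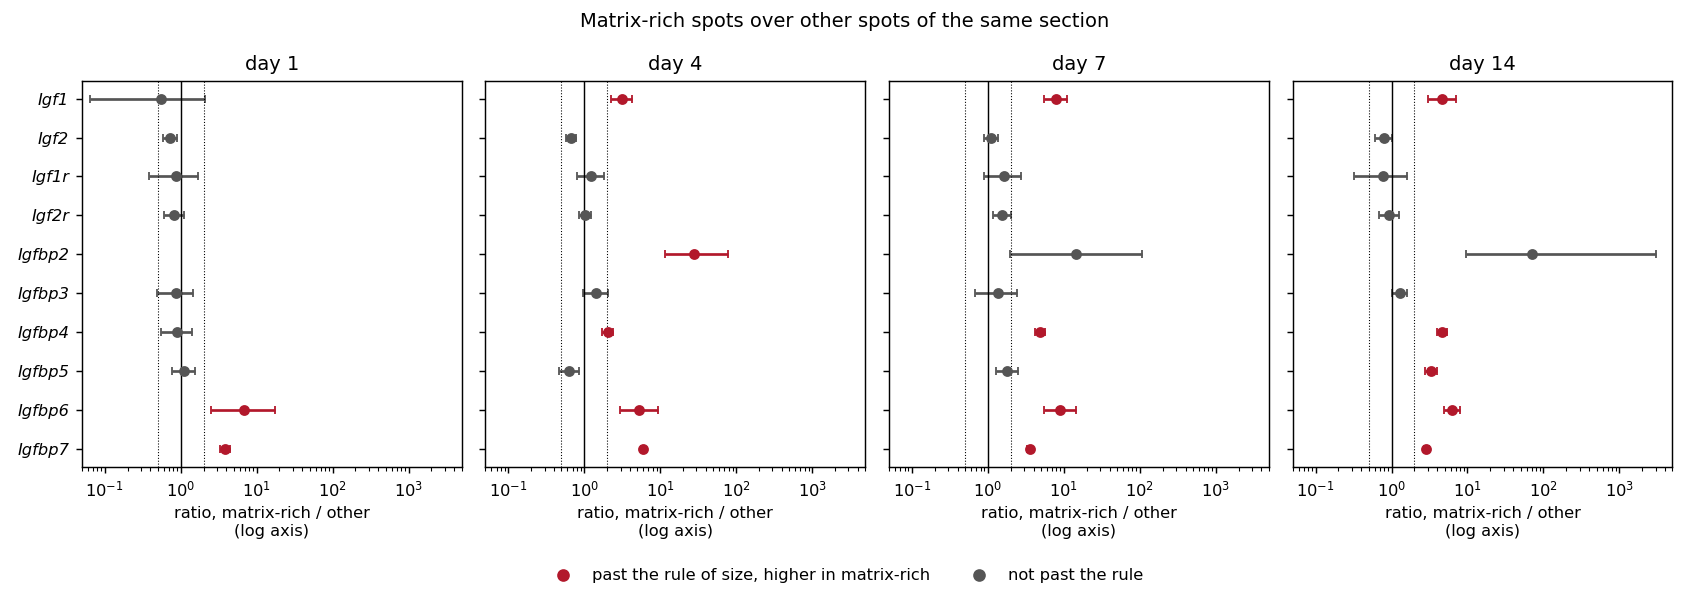
Ratio of CPM in matrix-rich spots over other spots of the same section, 1 panel a day, on a log axis with 95% counting intervals; red marks genes counted as higher in matrix-rich spots. Igfbp6 and Igfbp7 pass on every day, Igf1 and Igfbp4 at days 4, 7 and 14, and Igfbp5 at day 14 at 3.29; Igfbp2 has no point at day 1, where it had no UMI in matrix-rich spots.

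Across the 29 clusters of the 4 sections, Igf2 was highest on each day in another place, the cluster with the largest share of endocardial genes (Npr3, Nfatc1, Plvap, Hapln1, Tmem100 and Cytl1). That comparison was chosen after the cluster values were seen. The leading genes of the clusters included Npr3 and Cntn2 or Cytl1, and Gja5, a connexin gene of conduction tissue and atrium, at days 1 and 7. They held 40, 57, 32 and 61 spots with a summed endocardial level of 533, 349.5, 358 and 559.6 CPM, against 100.02, 78.5, 70.9 and 144 CPM in the other spots. Atrial genes summed to 3568, 5134, 1444 and 4157 CPM in them and to 1322, 7134, 580.2 and 2567 CPM in the other spots. Fibroblast genes summed to 1085, 2289, 3467 and 9781 CPM in them, against 870, 1668, 2015 and 4471 CPM in whole sections. Matrix genes summed to 7489, 15153, 18000 and 15165 CPM in them, against 5600, 12701, 11165.5 and 9619 CPM in whole sections. The part of atrial, fibroblast and matrix genes in the result was not tested.

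In these clusters Igf2 reached 1218, 951, 859 and 738 CPM at days 1, 4, 7 and 14, against 446, 418, 245.5 and 139.5 CPM in all other spots of the section. The ratio was 2.73 at day 1 (2.40 to 3.09), 2.27 at day 4 (2.06 to 2.51), 3.50 at day 7 (2.93 to 4.16) and 5.29 at day 14 (4.41 to 6.32). The ratio was thus larger at day 14 than at days 1 and 4, with intervals that do not meet. With the top 10% of spots by endocardial genes in place of the cluster it was 2.17, 2.01, 1.60 and 2.08, so the day 7 call ended and that order was lost. A coarser clustering gave 1.71 at day 1 and 1.69 at day 4 and ended those calls. In whole sections Igf2 was lower at day 14 than at day 1 under all 7 alternatives run, leaving out this cluster among them, at 0.310 to 0.388 of the day 1 level.

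The other members were less even there. Of the 10 genes, 3 passed as higher in the cluster at day 1, 1 at day 4, 2 at day 7 and 2 at day 14, against 7.62%, 3.27%, 6.93% and 5.56% of all genes tested, and none passed as lower. In these comparisons 7, 8, 8 and 9 of the 10 reached 20 CPM. Igfbp5 passed at day 1, at 337 CPM against 127 CPM (2.65-fold, 2.07 to 3.35), and at day 7, at 179 CPM against 63.1 CPM (2.84-fold, 1.88 to 4.12). Igfbp4 passed at day 1, at 215 CPM against 89.6 CPM (2.40-fold, 1.77 to 3.23). With the top 10% of spots by endocardial genes both day 1 calls ended, at 1.98 for Igfbp5 and 1.60 for Igfbp4, while Igfbp4 passed at day 7 (2.24) and day 14 (2.15). At day 14 Igfbp3 reached 644 CPM in the cluster, against 124 CPM in the other spots (5.19-fold, 4.27 to 6.28), a ratio that was 2.95 with the top 10% of spots by endocardial genes. On the earlier days Igfbp3 stood at 133, 64.4 and 35.8 CPM in the cluster and 74.1, 42.4 and 25.0 CPM in the other spots, and did not pass. Igfbp2 had no UMI in the cluster on any day.

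**Figure D4:**
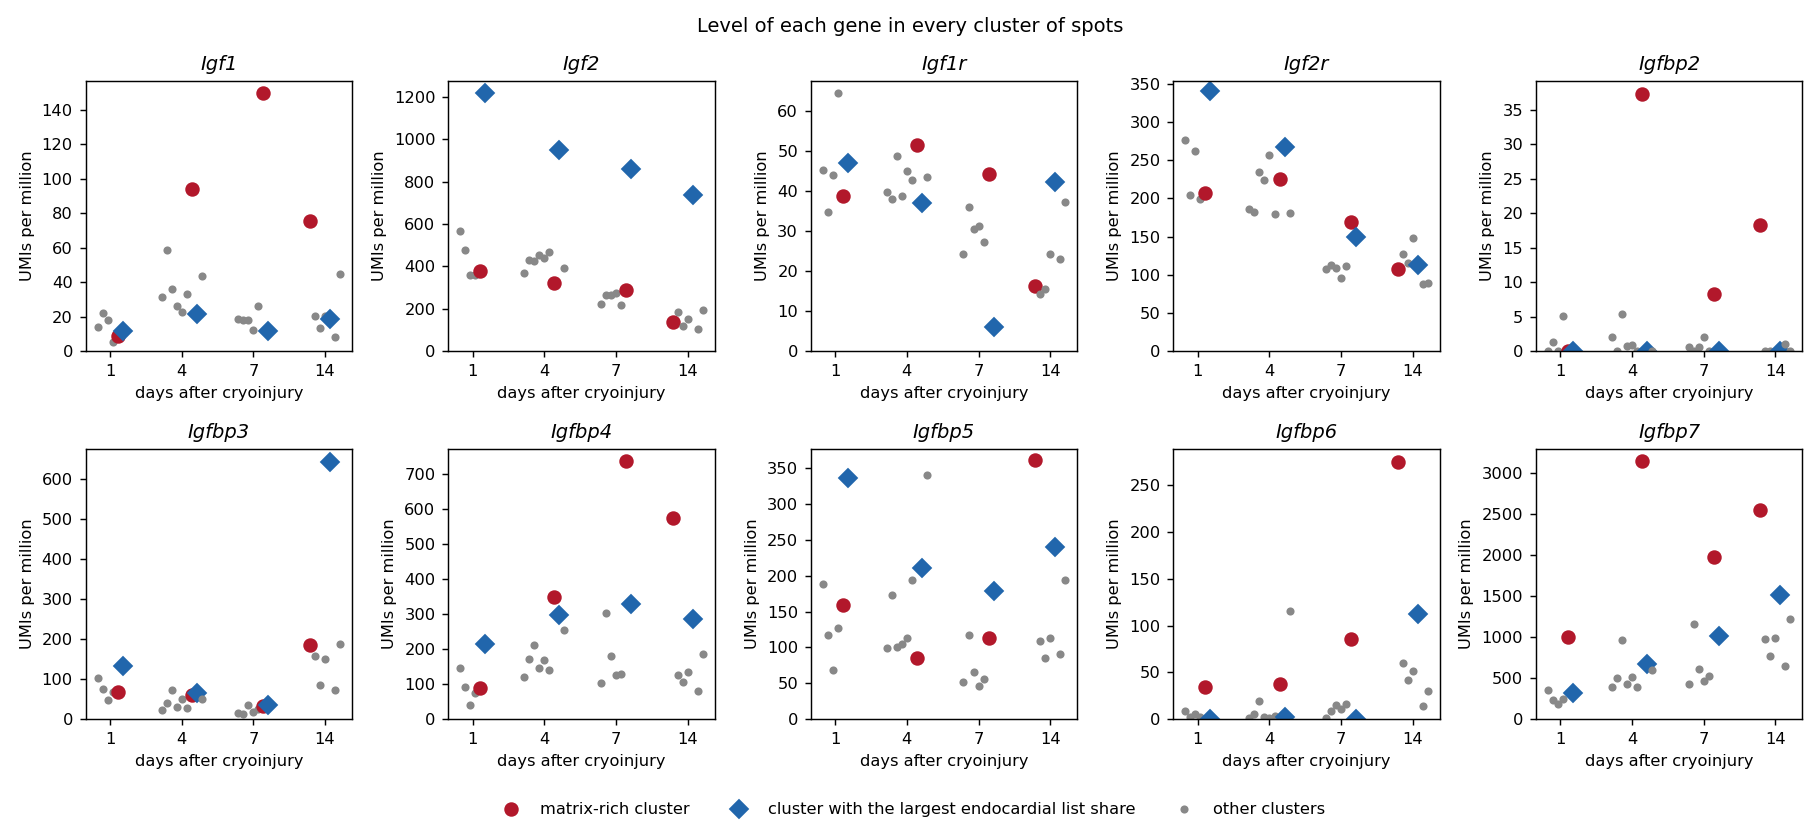
CPM of each of the 10 genes in every one of the 29 clusters, by days after cryoinjury; red circles are the matrix-rich cluster of a section, blue diamonds the cluster with the largest endocardial gene share, grey points the others. For Igf2 the blue diamonds stand alone at 1218, 951, 859 and 738 CPM, and for Igfbp7 the red circles are the highest of each section, at 1002, 3151, 1982 and 2556 CPM.

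Igfbp6 had its highest level of day 4 in yet another cluster. The cluster led by C3, Msln, Upk3b and Upk1b, the last 3 of which mark mesothelium and epicardium, held 21 spots with 116 CPM of Igfbp6, against 37.3 CPM in matrix-rich spots and at most 19.8 CPM in every other cluster of that section. The same cluster had 341 CPM of Igfbp5, the highest of the section. Its summed level of 11 epicardial genes was 638 CPM.

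Likeness to other genes was measured as Pearson's r over the 29 clusters, on log2(CPM + 10) centred within each section, among 3670 genes. Clusters of a section share a library, so r is a description with no p. Igfbp7 was most like the matrix genes Bgn (r = 0.98), Col5a2 (0.97) and Col1a1 (0.96), and of 16 cell type lists most like the matrix list (0.96). These genes belong to the matrix list that picked the matrix-rich clusters, so the r values are not separate support for the level of Igfbp7 there. Without centring, Cst3 (0.94), Timp2 (0.93) and Serpinf1 (0.93) were most like it, and its r with the matrix list was 0.87. Igfbp4 was most like Fbln1 (0.95), Ltbp4 (0.93) and Mfap4 (0.92), which encode elastic fibre proteins, and most like the fibroblast list (0.89). Igf2 was most like the imprinted genes H19 (0.83) and Plagl1 (0.83) and then Ncam1 (0.81), and of the lists most like the endocardial one (0.77). Without centring the same 3 genes led for Igf2, while its r with the endocardial list was 0.34. The endocardial list also picked the clusters described above. Its r with Igf2, Igfbp3 or Igfbp5 is thus not separate support for their levels in those clusters.

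Igfbp3 was most like Sulf2 (0.83), Gsn (0.79) and Plk2 (0.77) and the endocardial list (0.76). Igfbp6 was most like Pabpc1 (0.87), Slc39a7 (0.81) and Npc2 (0.81) and the epicardial list (0.85). Without centring, its r with the epicardial list was 0.30, the fibroblast list led at 0.76, and Serping1 (0.86), Capns1 (0.84) and Nbl1 (0.82) were the most like genes. Igfbp5 was most like Ubb (0.78), Gnb2 (0.76) and the member Igfbp4 (0.75), with the endocardial list highest at 0.61. Igf1 was most like Csrp2 (0.78), Olfml2b (0.78) and Col18a1 (0.77), with the valve and cartilage list highest at 0.73. Igf2r was most like Myl1 (0.75), Tcf21 (0.73) and Nedd4 (0.71), with the atrial list highest at 0.64. Igf1r was most like Rab14 (0.72), Sgta (0.70) and Ppm1a (0.69), with no list above 0.49. Without centring the leading list also changed for Igfbp4, to the matrix list (0.88), and for Igf1r, to the epicardial list (0.31), while the same list led for the other 7 genes. Igfbp2, whose values rest on few UMIs, was most like Spon2 (0.80), Meox1 (0.78) and Rack1 (0.77), with the valve and cartilage list highest at 0.67. Among pairs of the 10 genes the highest r were 0.75 for Igfbp4 with Igfbp5 and with Igfbp7, and 0.74 for Igf2 with Igfbp3.

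Of 52 other genes of the pathway, in 5 lists, 34, 32 and 35 reached 20 CPM in whole sections at days 4, 7 and 14. At day 4, 1 passed as higher and 1 as lower, at day 7 2 and 4, and at day 14 4 and 4. Over all genes that reached 20 CPM, 6.11%, 6.29% and 13.4% passed in either direction on those days. The list of the Igf2 locus and its mRNA-binding proteins (5 genes, 3 measured) had 2 lower genes at days 7 and 14, H19 and Igf2bp2. H19, the noncoding RNA beside Igf2 that is expressed from the maternal allele, stood at 581, 219 and 67.1 CPM at days 1, 7 and 14, with ratios over day 1 of 0.377 (0.350 to 0.405) and 0.116 (0.102 to 0.131). Igf2bp2, whose product binds Igf2 mRNA, stood at 45.3, 13.5 and 8.13 CPM on those days. H19 was 4.46-fold higher in matrix-rich spots than in other spots at day 7 (3.89 to 5.09), at 797 CPM against 179 CPM, where Igf2 was at 291 CPM against 262 CPM. Those matrix-rich spots also held skeletal muscle RNA, 426 CPM for 8 genes against 11.7 CPM in other spots, and its part in the H19 level was not tested.

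Of 8 other binding proteins and regulators, 2 were measured. Htra1, a secreted protease that cleaves binding proteins, was higher at day 4 (2.05-fold, 1.78 to 2.38), day 7 (2.33-fold, 2.02 to 2.70) and day 14 (2.45-fold, 2.12 to 2.84). Stc2, an inhibitor of the protease Pappa, was lower at days 4 (0.433, 0.305 to 0.611) and 7 (0.432, 0.303 to 0.614) and higher at day 14 (2.02-fold, 1.55 to 2.65). Among 9 receptor adaptor genes Irs2, an insulin receptor substrate, was 3.03-fold higher at day 7 (2.38 to 3.89). Grb10, an imprinted inhibitory adaptor, was lower at day 7 (0.479, 0.443 to 0.518) and day 14 (0.288, 0.260 to 0.318). Of 22 genes of PI3K, Akt and mTOR signalling 16, 16 and 18 were measured, and only Pik3r1 (2.14-fold higher) and Eif4ebp1 (0.459) passed, at day 14. Of the 8 genes of insulin and growth hormone signalling Stat5a alone passed, 2.04-fold higher at day 14 (1.51 to 2.78).

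In matrix-rich spots at day 4, Insr, the insulin receptor gene, stood at 17.8 CPM against 73.1 CPM in other spots (0.243, 0.116 to 0.452), and the adaptor gene Grb14 at 28.4 CPM against 93.3 CPM (0.305, 0.173 to 0.50015). Grb14 also passed at day 7, at 41.5 CPM against 100.2 CPM (0.414, 0.230 to 0.689). Socs2, a feedback inhibitor of growth hormone signalling, was higher in matrix-rich spots at day 7 (74.7 CPM against 25.7 CPM, 2.90-fold, 1.85 to 4.42). At day 14 Socs2 was 2.03-fold higher there (1.23 to 3.25). At day 7 the matrix-rich spots also held skeletal muscle RNA, whose part in the day 7 ratios was not tested.

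Shares of spots with a UMI were compared after spots were thinned to 2500 UMIs, since depth per spot differed. This left out 40, 3, 3 and 131 kept spots at days 1, 4, 7 and 14, which the unthinned shares include. Igf2 was found in 67.7%, 59.9%, 43.8% and 27.7% of thinned spots at days 1, 4, 7 and 14, against 89.2%, 92.4%, 77.3% and 36.8% unthinned. Igfbp7 was found in 45.2%, 66.3%, 66.0% and 84.0% of thinned spots, and in 78.4%, 93.5%, 94.3% and 90.6% unthinned. Igfbp6 was found in 0.741%, 0.910%, 2.98% and 12.3% of thinned spots, and in 4.72%, 5.14%, 8.40% and 17.6% unthinned. Igfbp1, a binding protein made mainly by liver, had no UMI in the 405, 659, 771 and 1044 thinned spots, for which the exact binomial upper bounds are 0.907%, 0.558%, 0.477% and 0.353%. The share of spots with Igfbp6 lay under that bound at day 1 and above it on the later days, and those of Igf2 and Igfbp7 lay above it on all 4.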

How the data were processed

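Visium libraries of 4 sections, 1 for each day, were sequenced, and the authors deposited UMI counts per gene and spot, not normalized. The submitters' processing notes name Space Ranger 1.3.0, Seurat 4.1.1 and mm10, with no settings. Depth is given above; intervals and floors of 3 counts cover counting error only. Spots with fewer than 500 UMIs were left out. Pooled counts were divided by all counts except those of 8 haemoglobin and 13 mitochondrial genes. Clusters came from each section separately with scanpy 1.11.5 (Python 3.11.15): 2000 variable genes, 15 components, 15 neighbours and Leiden resolution 0.8, with clusters under 10 spots not used. Ratio intervals are exact conditional binomial ones (scipy 1.17.1), checked on simulated counts. Named signalling genes were up to 4 per comparison by size of ratio among those past the rule. The 3 most like genes of each member were taken from genes at 50 CPM or more in at least 1 section. Alternatives were other totals, TMM factors (edgeR 4.0.16), other spot minimums, clusterings, regions and a mean over spots. The members and lists were chosen with earlier results of these data known.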

Additional observations from a re-analysis of the deposited data

Results flagged for a closer look

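Igfbp5 lay on opposite sides of other spots on different days. Its level in matrix-rich spots was 1.79-fold that of other spots at day 7 and 3.29-fold at day 14, against 0.633 at day 4. Each interval excludes 1, but the difference between days was not tested, since each day had 1 section. With the top 10% of spots by matrix genes in place of the cluster, the day 4 ratio was 1.197, and the sides were no longer opposite. Without matrix-rich spots holding a skeletal muscle UMI the day 7 ratio was 1.13.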

How the results depend on the processing

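No direction reversed among called values. Of 1374 gene values under alternatives 1289 stayed within the counting interval of the value given, and of 515 values of called genes 494 kept the call. Of 171 counts of genes past the rule 160 stayed within 1.5 times. The others follow. A minimum of 50 CPM left 1 gene in whole sections at day 4, 3 in other spots at day 14, and 1 at day 1 and 3 at day 4 between matrix-rich and other spots. TMM scaling left 3 in other spots at day 14. In other spots at day 4, a mean over spots gave 2 and the coarser clustering and the top 10% of spots gave 0. The coarser clustering gave 5 inside matrix-rich spots at day 7. For the endocardial cluster, a comparison chosen after seeing the data, the top 10% of spots gave 1 at day 1 and the coarser clustering 0 at day 4. The causes were not tested. Igfbp6 between days 14 and 1 in other spots was 13.4-fold with a mean over spots. In matrix-rich spots at day 1, Igfbp2 had 0 UMIs, Igf1 2, Igfbp6 8 and Igf1r 9, which limits ratios over that day. No paired analysis was possible because each day had 1 section.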
